A study of Mus musculus with 10 samples.

Results

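Striatal cholinergic neurons of the mouse were profiled by translating ribosome affinity purification (TRAP), in which ribosomes that carry a fluorescent tag are pulled from tissue with an antibody and the RNA on them is sequenced. The profile sets 3 immunopurified libraries from mice that self-administered saline against the 1 input library, total RNA from the whole striatum of saline animals, which makes 4 of the 10 libraries of the study. All mice belonged to 1 line, Chat-EGFP/Rpl10a (DW167), whose name places the ribosomal protein Rpl10a, fused to enhanced green fluorescent protein, under control of the choline acetyltransferase gene Chat, and the series describes them as adult. The other 6 immunopurified libraries, 3 after cocaine self-administration and 3 of the yoked control group of the same line, were read against the same input and are given beside the saline values. Each count table lists 32531 gene symbols, and the 15888 with at least 20 counts in the input or in the mean saline immunopurified library were kept. The labels do not say how many animals went into a library, so the spread between libraries may be biological or technical.

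Cholinergic interneurons are few, large and tonically active, and their axons supply most of the acetylcholine in the striatum. They synthesise acetylcholine from choline and acetyl coenzyme A, load it into vesicles, and recover choline after acetylcholinesterase has split the released transmitter. Dopamine, tachykinins, opioids and acetylcholine itself are known to adjust their firing through receptors on the same cells.

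For each gene the count scaled to the library's total gene counts (counts per 1000000, CPM) in each saline library was divided by that in the input, and the log2 of the ratio is given below as the mean ± SD over 3 libraries. A gene was called higher or lower when the ratio was at least 4-fold in the same direction in all 3. Of the 15888 genes, 566 were called higher (3.56%) and 2045 lower (12.9%), while 5689 lay above the input in all 3 libraries by any margin (35.8%) and 7136 below it (44.9%). The median over all genes was −0.20 ± 0.02. The 3.56% and 12.9% over all genes are the shares to set beside the counts called in each class below. The count minimum shapes both sets, since 174 of the higher genes passed it through the immunopurified libraries alone and 1373 of the lower ones through the input alone. Because there is a single input library, no p value is attached to a gene. All 3 ratios of a gene share that input, so their SD holds none of the input's own error.

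Several properties of the libraries move with the contrast. The saline libraries held between 25609304 and 42100828 gene counts and the input 40912230. Reads on no annotated feature made up 7.48% to 9.39% of a saline library and 15.2% of the input, and by their labels the saline libraries were run on lane 3 and the input on lane 5. Ribosome-bound against total RNA, cholinergic against all cells, and lane therefore cannot be told apart here. Nor can fewer cells of a type be told apart from less RNA per cell.

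All 13 measured markers of cholinergic neurons were called higher, with a median log2 ratio of 5.31 ± 0.12 in the saline libraries and between 5.02 and 5.65 in the 6 others. Slc18a3, which loads acetylcholine into vesicles, stood at 8.36 CPM in the input and at 656, 959.7 and 1036 CPM in saline libraries 1 to 3, a log2 ratio of 6.70 ± 0.35. Chat itself went from 10.1 CPM to 477, 601 and 573 CPM (5.76 ± 0.18), and every immunopurified value stood far above the input. The lowest of the list was Isl1, a LIM homeobox factor that spiny projection neurons of the direct pathway also use, at 19.3 CPM in the input and 136, 89.7 and 105 CPM after purification (2.49 ± 0.31).

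Markers of the other cell types set a yardstick for RNA that did not come from cholinergic neurons. Of 110 such markers in 12 lists, 61 were called lower, 0 higher, 99 lay below the input in all 3 libraries and 5 above it, and their median was −3.20 ± 0.53. From the 10th to the 90th percentile they ran from −4.55 to −0.68. Their summed level was 23703 CPM in the input and 6305, 4484 and 4152 CPM in saline libraries 1 to 3, with 4909 to 5978 CPM in the 6 other immunopurified libraries. Saline library 1 held the most, and its marker median of −2.53 compares with −3.55 and −3.29 in libraries 2 and 3. Ebf1 of direct-pathway spiny neurons shows this, at 12.3 CPM in library 1 and 2.13 and 2.92 CPM in the others, against 66.0 CPM in the input. Ttr, the transthyretin gene of the choroid plexus, stood apart in saline library 3, with 85.8 CPM against 2.23 and 0.286 CPM in libraries 1 and 2 and 4.94 CPM in the input. In 15 of the 110 markers a saline library had no count at all, and no marker was at 0 in all 3.

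Among the markers above the input were Lhx6 (2.08 ± 0.44), Pdgfra (1.35 ± 0.17), Chrm4 (1.05 ± 0.37) and Th (0.93 ± 0.35). Lhx6, a LIM homeobox gene listed with the other interneurons, measured 29.6 CPM in the input and 175, 117 and 96.0 CPM after purification, while Pvalb, Sst and Npy from the same list were called lower, at −4.58 ± 1.53, −3.20 ± 0.58 and −5.53 ± 2.41. Pdgfra, listed for oligodendrocyte precursors, measured 24.0 CPM and then 61.1, 54.3 and 68.5 CPM, while Olig1 and Olig2 of the same list were called lower (−3.21 ± 0.42 and −5.59 ± 3.45). Lhx6 and Pdgfra thus differed in direction from those members of their own lists.

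**Figure D1:**
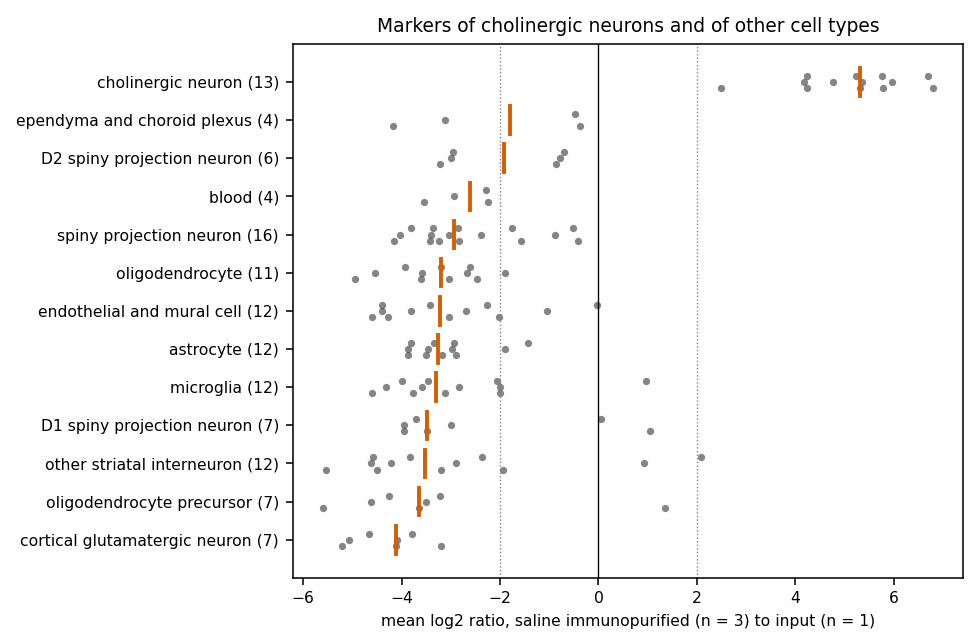
Mean log2 ratio of each measured marker gene (grey points), saline immunopurified (n = 3) over input (n = 1), by marker list with the number of measured genes in brackets. Orange bars are list medians, and dotted lines mark 4-fold differences. All 13 cholinergic markers lie to the right of the upper dotted line, and the medians of the 12 other lists lie below 0.

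The 250 bases before an annotated start of each of the 4 defining cholinergic genes are shown. Chat and Slc18a3 form 1 locus, with Slc18a3 lying inside Chat. Sequences are from RefSeq (GRCm38.p6), 5′ to 3′ on the minus strand that carries all 4 genes, with matches to the E-box motif CANNTG in capitals. They lie at chr14:32465910-32466159 for Chat, chr14:32464851-32465100 for Slc18a3, chr17:54299035-54299284 for Slc5a7 and chr3:154330561-154330810 for Lhx8. The last bases of the Slc5a7 window overlap the gene's span, whose upper end is at 54299038.
Chat: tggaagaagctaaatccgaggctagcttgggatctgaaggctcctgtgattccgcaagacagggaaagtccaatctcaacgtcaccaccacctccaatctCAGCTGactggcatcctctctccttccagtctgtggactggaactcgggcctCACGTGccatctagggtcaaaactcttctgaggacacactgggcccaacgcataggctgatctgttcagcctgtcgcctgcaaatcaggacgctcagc
Slc18a3: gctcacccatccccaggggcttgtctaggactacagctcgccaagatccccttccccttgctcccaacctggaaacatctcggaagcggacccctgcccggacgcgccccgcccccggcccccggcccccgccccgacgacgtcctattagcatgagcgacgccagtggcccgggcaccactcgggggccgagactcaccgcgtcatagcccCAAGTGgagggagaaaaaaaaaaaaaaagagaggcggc
Slc5a7: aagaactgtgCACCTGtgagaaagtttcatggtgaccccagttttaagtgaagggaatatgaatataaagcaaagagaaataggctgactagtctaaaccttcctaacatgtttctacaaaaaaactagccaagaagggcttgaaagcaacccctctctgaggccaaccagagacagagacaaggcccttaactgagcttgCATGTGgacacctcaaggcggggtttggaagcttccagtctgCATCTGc
Lhx8: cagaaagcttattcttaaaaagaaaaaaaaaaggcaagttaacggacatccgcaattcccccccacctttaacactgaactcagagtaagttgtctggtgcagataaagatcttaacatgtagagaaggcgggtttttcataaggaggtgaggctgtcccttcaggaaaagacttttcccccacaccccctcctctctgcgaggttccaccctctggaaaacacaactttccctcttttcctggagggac
Both strands were searched, and CANNTG, which reads the same on either, matched 2 times for Chat, 1 time for Slc18a3, 3 times for Slc5a7 and 0 times for Lhx8. The homeobox core TAATTA, which is also its own reverse complement, was in none of the 4 windows. Of 32851 RefSeq promoter windows of this length 66.2% held CANNTG and 4.84% TAATTA, and of the 486 windows of genes called higher 61.9% and 2.67%. Neither share was above that of all windows, and windows of the genes called higher had a median GC content of 58.6% against 52.4% over all windows. A match describes these letters alone and is no evidence that a factor binds there.

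Genes of acetylcholine synthesis, packaging, uptake and breakdown had the highest median of the 51 gene classes, 2.72 ± 0.32. Of 12 measured members 6 were called higher (50%, against 3.56% over all genes) and 2 lower (16.7%, against 12.9%). Chat, Slc18a3, Slc5a7 and Ache are also on the cholinergic marker list, so this rank partly repeats the marker result. Slc5a7, which carries choline back into the terminal, measured 34.6 CPM in the input and 1196, 1517 and 1415 CPM after purification (5.31 ± 0.18). Ache, acetylcholinesterase, measured 19.8 CPM and then 399, 753 and 506 CPM (4.75 ± 0.46). Prima1, which anchors that enzyme in the neuronal membrane, went with it at 15.2 CPM and then 258, 498 and 353 CPM (4.56 ± 0.47). The other cholinesterase, Bche, which glia are known to make, was called lower, from 8.04 CPM to 1.17, 0.223 and 1.38 CPM.

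The supply of acetyl coenzyme A was also represented. Slc25a1, the mitochondrial carrier that exports citrate to the cytosol, was among the 25 highest protein-coding genes, at 24.5 CPM in the input and 486, 569.9 and 560.1 CPM after purification (4.45 ± 0.13). Acly, the enzyme that splits that citrate into acetyl coenzyme A, measured 71.9 CPM and then 985, 1749.9 and 1286 CPM (4.18 ± 0.41). Earlier steps differed far less, since Pdhb and Pdha1, subunits of pyruvate dehydrogenase, were at 1.55 ± 0.18 and 0.47 ± 0.15 and Cs, citrate synthase, at 0.30 ± 0.09. On the choline side, Slc44a1 and Slc44a5, transporters of the choline transporter-like family, were below the input (−1.47 ± 0.32 and −2.66 ± 0.63), as was choline kinase alpha, Chka (−0.60 ± 0.46).

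**Figure D2:**
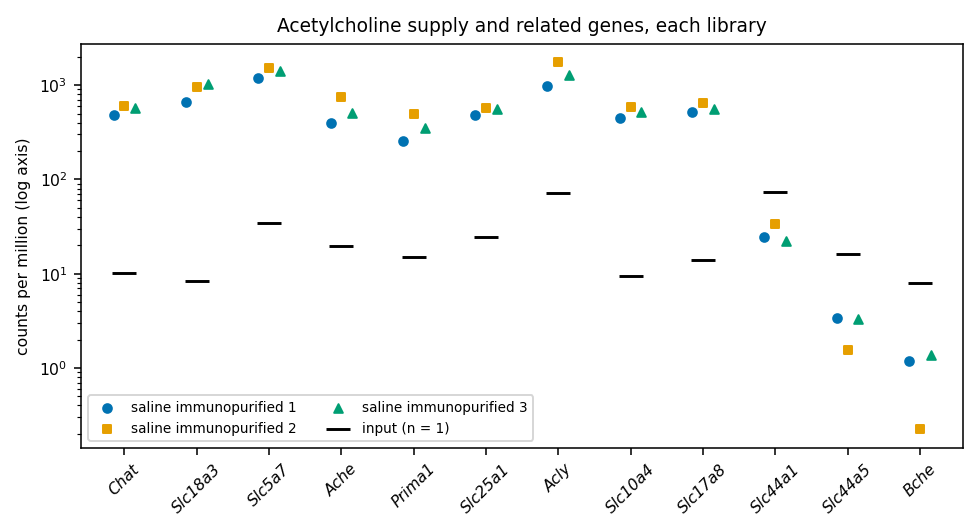
CPM (log axis) of genes of acetylcholine supply and of the co-stored transporters Slc10a4 and Slc17a8 in the 3 saline immunopurified libraries (coloured symbols) and the 1 input library (black bars). The first 9 genes stand above the input in all 3 libraries, and Slc44a1, Slc44a5 and Bche below it.

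Among genes for other transmitters, 1 of 15 was called higher (6.67%) and 5 lower (33.3%). The one is Slc17a8, the vesicular glutamate transporter VGLUT3, at 14.1 CPM in the input and 524, 654 and 557 CPM after purification (5.35 ± 0.16). The related transporters Slc17a7 and Slc17a6 of cortical and subcortical glutamate neurons were called lower (−4.12 ± 0.64 and −4.03 ± 1.73). Genes of GABA signalling divided. The synthetic enzymes stayed near the input, with Gad2 at 1173 CPM and then 946, 1093 and 850.1 CPM (−0.29 ± 0.18) and Gad1 at −0.45 ± 0.27. Slc32a1, the transporter that loads GABA into vesicles, was called lower, from 67.9 CPM to 7.34, 4.65 and 7.13 CPM (−3.44 ± 0.37). Both Gad ratios lie above the 90th percentile of the other-cell markers, and that of Slc32a1 lies below their median. The highest of the 16 spiny projection neuron markers, at −0.42, lies between Gad1 and Gad2. The part of other cells in the Gad values was not tested.

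Transcription factors of the cholinergic lineage were split. Of 21 measured, 8 were called higher (38.1%, against 3.56% over all genes) and 7 lower (33.3%, against 12.9%). Their median of 0.29 ± 0.22 changed sign under some settings. Lhx8, which directs cholinergic fate, measured 17.5 CPM in the input and 648, 726 and 603 CPM after purification (5.23 ± 0.13). Nkx2-1, which patterns the medial ganglionic eminence where these cells arise, measured 6.48 CPM and then 85.1, 88.4 and 96.5 CPM (3.79 ± 0.09). Of the Zic family of zinc finger factors, Zic1 and Zic4 were called higher at 4.48 ± 0.17 and 4.23 ± 0.10, and Zic2 lay above the input at 1.44 ± 0.36. The lower members include Sox6 (−4.62 ± 1.13) and Nr2f2 (−3.71 ± 2.15), factors of cortical and striatal GABA interneurons, and Etv1 (−3.66 ± 0.82).

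Of 42 measured genes in the wider homeobox class, 6 were called higher (14.3%, against 3.56% over all genes) and 15 lower (35.7%, against 12.9%). The class median was −1.94 ± 0.19. Besides Lhx8 and Nkx2-1, Meis3 (3.16 ± 0.10), Tshz2 (2.64 ± 0.25) and Pbx3 (2.61 ± 0.15) were called higher, and Pbx3 and Meis3 encode partners that bind DNA beside other homeobox factors. Dlx6os1, the long noncoding RNA opposite Dlx5 and Dlx6, was called higher at 2.84 ± 0.14, while Dlx5, Dlx6 and Dlx1 lay at 0.54 ± 0.28, −0.71 ± 0.26 and −2.33 ± 0.49. The strand setting of the counts is not given in the sources used here, so reads of Dlx6os1 and of the genes it overlaps may not be told apart. In the nuclear receptor class 10 of 36 genes were called lower (27.8%, against 12.9% over all genes) and 2 higher (5.56%, against 3.56%). One is the bile acid receptor Nr1h4, with 9 counts (0.220 CPM) in the input and 8.94, 11.9 and 7.79 CPM after purification, a pooled ratio of 42.6 with a 95% counting interval of 22.4 to 93.6. Irf4, an interferon regulatory factor best known from lymphocytes, rested on 8 input counts (0.196 CPM) and reached 9.92, 21.5 and 18.5 CPM, a pooled ratio of 88.0 (44.6 to 204), and no other of the 8 measured genes of its class was called higher.

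Growth factor receptors gave 5 of 32 called higher (15.6%) and 10 lower (31.25%), with a median of −1.42 ± 0.07. Ntrk2 and Ntrk3, the receptors for brain-derived neurotrophic factor and neurotrophin 3, lay below the input at −1.38 ± 0.20 and −1.45 ± 0.11. Ngfr, the p75 neurotrophin receptor, was called higher but varied between libraries, at 12.6, 58.2 and 78.4 CPM against 2.15 CPM in the input (4.16 ± 1.42). Ret, the signalling receptor for the GDNF family, measured 1.10 CPM in the input and 11.6, 22.8 and 23.9 CPM after purification (4.07 ± 0.58). Gfra1 and Gfra2, co-receptors that bind GDNF and neurturin, were below the input (−2.53 ± 1.11 and −3.01 ± 0.76). Gfra3, the artemin co-receptor, had 0 counts in the input, which 3 counts would put at 0.0733 CPM, and 0.430, 2.07 and 1.35 CPM after purification, at least 14.5-fold higher.

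Among the ligands, Gdnf itself was called higher, from 5.23 CPM to 53.7, 52.6 and 51.1 CPM (3.33 ± 0.04), with a narrow spread. Fgf1 was called higher as well (2.50 ± 0.12), and so was the receptor Fgfr1 (3.31 ± 0.14). Bdnf was at the other end of all protein-coding genes, from 9.12 CPM in the input to 0.117, 0 and 0.0475 CPM after purification, with 0 counts in library 2.

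Neuropeptide precursors were mostly low, with a median of −1.95 ± 0.29. Of 37 genes 12 were called lower (32.4%, against 12.9% over all genes) and 2 higher (5.41%, against 3.56%). Those called higher were Gal, the galanin precursor, from 0 CPM to 0.390, 1.56 and 2.04 CPM, and Rln1, a relaxin precursor, from 0.122 CPM to 0.703, 1.02 and 0.570 CPM, both with few counts. Npy, Cck and Penk, peptides of GABA interneurons, cortical cells and indirect-pathway spiny neurons, were called lower at −5.53 ± 2.41, −4.15 ± 1.03 and −3.22 ± 0.58. Cartpt, the precursor of the cocaine- and amphetamine-regulated transcript peptide, lay above the input in all 3 libraries, from 2.44 CPM to 8.79, 14.2 and 13.2 CPM, but missed the 4-fold rule in library 1. Genes that serve secretory granules in general were closer to the input, with the proprotein convertase inhibitor Pcsk1n at 1.65 ± 0.48 and the granins Chga and Chgb at 1.15 ± 0.35 and 0.25 ± 0.25.

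Most receptor classes had medians below the input, and single members stood out above it. Neuropeptide and opioid receptors had a median of −2.99 ± 0.02, with 24 of 48 called lower (50%) and 5 higher (10.4%). Tacr1, the receptor for substance P, was the highest, at 33.8 CPM in the input and 1099, 1514 and 1262 CPM after purification (5.24 ± 0.23). Tacr3, the neurokinin B receptor, was the most even, at 4.18 CPM and then 149, 147 and 149 CPM (5.15 ± 0.01). The 3 classical opioid receptors divided. Oprd1, the delta receptor, measured 25.5 CPM and then 229.9, 365 and 317 CPM (3.55 ± 0.34), and Oprm1, the mu receptor, was above the input at 1.60 ± 0.24. Oprk1, the kappa receptor, was called lower (−3.17 ± 0.68). The angiotensin receptor Agtr1a (3.66 ± 0.18) and the orexin receptor Hcrtr2 (2.63 ± 0.27) completed the 5 called higher. At the low end lay the somatostatin receptor Sstr1 (−5.74 ± 0.96) and the cholecystokinin receptor Cckbr (−5.06 ± 1.08).

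Receptors for dopamine and acetylcholine divided by subtype. Drd5, a Gs-coupled dopamine receptor, measured 3.67 CPM in the input and 103, 173 and 142 CPM after purification, and Drd2, its Gi-coupled counterpart, 192 CPM and then 915, 1013 and 1129 CPM. Drd1, the other Gs-coupled receptor and a marker of direct-pathway spiny neurons, was called lower (−3.70 ± 0.77). The Gi-coupled muscarinic autoreceptor gene Chrm2 was called higher (3.90 ± 0.30), and Chrm1 and Chrm3, coupled to Gq, were called lower (−2.94 ± 0.94 and −4.51 ± 0.92). The muscarinic receptor gene Chrm4, named above among the markers of other cells, lay above the input in all 3 libraries (1.05 ± 0.37). Of 12 serotonin receptors Htr7 alone was called higher (2.59 ± 0.25) and 7 were called lower (58.3%, against 12.9% over all genes). Cnr1, the cannabinoid receptor abundant in spiny neurons, was called lower, from 628 CPM to 57.3, 43.6 and 49.5 CPM. The prostaglandin receptors Ptger2 and Ptger3 (3.94 ± 0.72 and 2.79 ± 0.60) and 2 orphan receptors, Gpr165 (3.41 ± 0.47) and Gpr153 (3.23 ± 0.33), were called higher.

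Subunits of the ionotropic receptors lay on different sides of the input within families. In the AMPA family Gria2, whose subunit keeps calcium out of the channel, was called lower, from 839 CPM in the input to 134, 118 and 92.1 CPM (−2.89 ± 0.28). The other 3 were closer to the input, Gria1 at −1.24 ± 0.18, Gria3 at −0.65 ± 0.28 and Gria4 at 0.46 ± 0.38, so that Gria4 was above the input and Gria2 below it in each library. NMDA receptor subunits spread further. Grin2d rested on 27 input counts and measured 12.2, 8.72 and 15.4 CPM against 0.660 CPM, a pooled ratio of 18.9 with a 95% counting interval of 12.9 to 28.8. Grin3a was called higher (2.61 ± 0.35), the obligatory subunit Grin1 was at −0.61 ± 0.35, Grin2b at −1.55 ± 0.18, and Grin2a was called lower (−3.56 ± 0.27).

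Among inhibitory receptor genes Glra2, a glycine receptor subunit, was called higher, from 14.7 CPM to 213, 292 and 237 CPM (4.06 ± 0.23). Of the GABA-A subunits, Gabra3 lay above the input (0.91 ± 0.39), and Gabra5, Gabrb2 and the extrasynaptic subunit gene Gabrd were called lower, at −2.50 ± 0.48, −2.26 ± 0.21 and −3.32 ± 1.38.

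**Figure D3:**
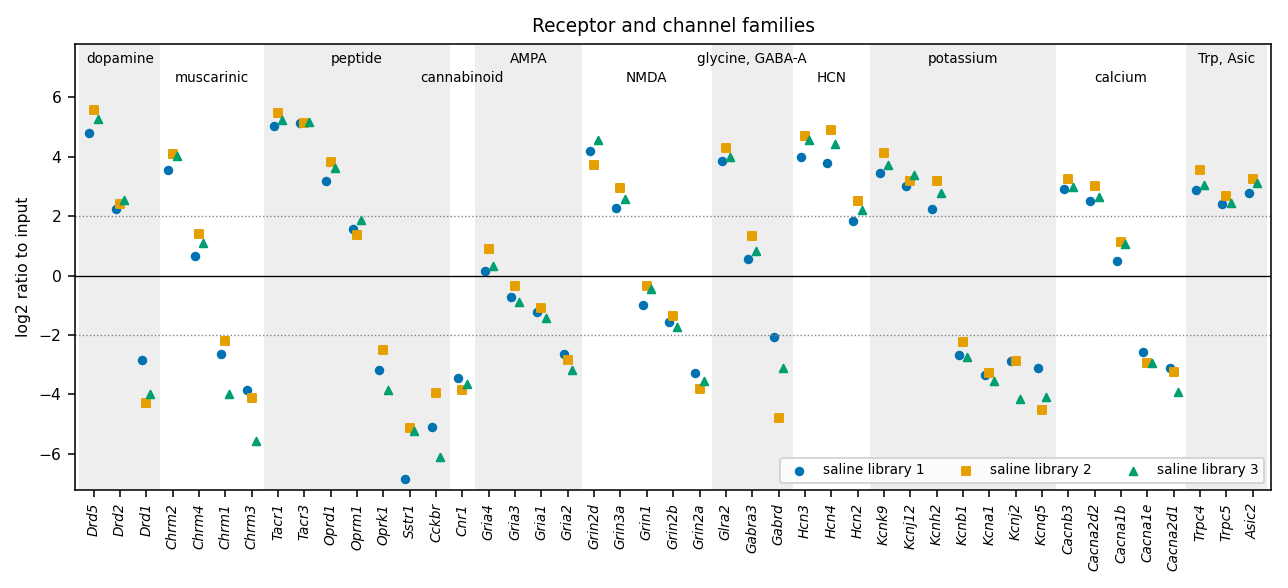
Log2 ratio to the input in each of the 3 saline immunopurified libraries for receptor and channel genes, grouped by family. Dotted lines mark 4-fold differences. The genes shown are a selection, not all measured members, and many were taken from the upper and lower ends of their classes. Members on both sides of the input are therefore partly a matter of choice. Examples are Drd5 and Drd2 above and Drd1 below, or Grin2d above and Grin2a below.

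Pacemaker channels were the ion channel class with the highest median, 1.12 ± 0.24. Of 8 genes 3 were called higher (37.5%, against 3.56% over all genes) and 1 lower (12.5%, against 12.9%). Hcn3 and Hcn4, which carry the hyperpolarisation-activated current, measured 3.76 and 3.28 CPM in the input. In saline libraries 1 to 3 Hcn3 reached 59.7, 96.8 and 88.9 CPM and Hcn4 45.5, 97.2 and 70.4 CPM. Hcn2 lay above the input in all 3 (2.19 ± 0.33). Of the sodium leak complex, Fam155a was called higher (2.08 ± 0.08), the pore gene Nalcn was at 0.06 ± 0.50 and Unc79 was called lower (−2.29 ± 0.19).

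Voltage-gated potassium channels had a median on the other side of the input, −1.66 ± 0.57. Of 46 genes 13 were called lower (28.3%, against 12.9% over all genes) and 2 higher (4.35%, against 3.56%). Kcnh2, the ERG channel, is one of the 2, at 14.8 CPM in the input and 70.5, 134 and 102 CPM after purification (2.74 ± 0.46), and the other is Kcnh8 (3.97 ± 1.34). Their relatives Kcnh7 and Kcnh5 were called lower (−3.93 ± 0.37 and −3.74 ± 0.54), as were Kcnv1 (−4.55 ± 0.70) and Kcnq5 (−3.91 ± 0.74). The background potassium channel Kcnk9 (3.78 ± 0.35) and the inward rectifier Kcnj12 (3.20 ± 0.19) were called higher, and the rectifiers Kcnj2, typical of spiny neurons, and Kcnj10, typical of astrocytes, lower (−3.31 ± 0.73 and −3.32 ± 0.91). Kcnt2, a sodium-activated channel, was called higher (2.42 ± 0.38).

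Trpc4 and Trpc5, cation channels opened downstream of Gq-coupled receptors, were called higher (3.16 ± 0.35 and 2.52 ± 0.14), as was the acid-sensing channel Asic2 (3.04 ± 0.23). Voltage-gated calcium channel genes differed between auxiliary subunits. The beta subunit Cacnb3 measured 90.9 CPM and then 693, 871 and 723 CPM (3.06 ± 0.18). Cacna2d2 was called higher (2.72 ± 0.27) and Cacna2d1 lower (−3.42 ± 0.44), while the N-type pore Cacna1b lay above the input (0.89 ± 0.35) and the R-type pore Cacna1e was called lower (−2.82 ± 0.22).

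Genes of cyclic nucleotide and G protein signalling divided by member as well. Pde3a, a phosphodiesterase that cyclic GMP inhibits, measured 4.62 CPM in the input and 97.2, 127 and 122 CPM after purification (4.63 ± 0.21). Adcy2, a calcium-insensitive adenylyl cyclase, measured 33.8 CPM and then 342, 541 and 407 CPM (3.65 ± 0.33). The corresponding genes of spiny neurons were below the input, with Adcy5 at −1.57 ± 0.10, Pde10a at −2.85 ± 0.82 and Pde7b going from 615 CPM to 145, 40.4 and 47.4 CPM. Among regulators of G protein signalling Rgs6, Rgs10 and Rgs12 were called higher (3.43 ± 0.26, 2.46 ± 0.10 and 2.29 ± 0.23), and Rgs9, Rgs8, Rgs14 and Rgs16 lower. The G protein gamma subunits followed, with Gng4 and Gng3 called higher (2.67 ± 0.11 and 2.46 ± 0.10) and Gng7 called lower (−2.75 ± 0.41). Ppp1r1b (DARPP-32), Arpp21 and Camk4, all abundant in spiny neurons, were called lower (−3.23 ± 0.65, −4.03 ± 0.73 and −3.81 ± 0.97).

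The release machinery, with 66 measured genes, had a median of −0.18 ± 0.08 and shares of calls close to those over all genes. Called lower were 8 (12.1%, against 12.9%) and called higher 2 (3.03%, against 3.56%). Rab3b, a vesicle GTPase, is one of the 2, at 95.2 CPM in the input and 805, 845 and 965 CPM after purification (3.19 ± 0.14). The other is Doc2g, a member of the double C2 family, which rested on 7 input counts (0.171 CPM) and reached 3.94, 3.18 and 1.28 CPM. Rab3a lay above the input at 1.43 ± 0.20 and Rab3c below it at −1.58 ± 0.10. Outside this class, the cholinergic marker Slc10a4, an orphan transporter of cholinergic vesicles, measured 9.41 CPM and then 446, 588 and 519.7 CPM (5.77 ± 0.20). Calcium handling genes had a median of −1.45 ± 0.06, with 3 of 38 called higher (7.89%) and 10 lower (26.3%). The 3 were Hpcal1 (3.67 ± 0.24), S100a10 (3.01 ± 0.29) and Sln, sarcolipin, an inhibitor of the sarcoplasmic calcium pump. Sln had the highest ratio of the class but 1 count in the input (0.0244 CPM), and measured 3.87, 6.20 and 13.8 CPM after purification, a pooled ratio of 360.3 with a 95% counting interval of 64.5 to 14246. The lower genes include Pvalb, S100b and the pump Atp2b1 (−3.19 ± 0.29).

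Cytoskeletal genes had a median above the input, 0.43 ± 0.01, and 29 of 50 were above it in all 3 libraries. Stmn3 and Stmn1, which destabilise microtubules, were called higher (2.45 ± 0.10 and 2.24 ± 0.07). The genes called lower were those of the mature neuronal skeleton, the neurofilaments Nefl (−2.74 ± 0.46) and Nefm (−2.72 ± 0.50) and the dendritic protein gene Map2 (−2.23 ± 0.12), 3 in all. Ina, a further neuronal intermediate filament gene, lay above the input (0.82 ± 0.23). Of 65 axon guidance genes 6 were called higher (9.23%, against 3.56% over all genes) and 15 lower (23.1%, against 12.9%). Of the 6, secreted cues are encoded by Slit1 (3.21 ± 0.52), Ntn1 (2.94 ± 0.21) and Ntn4 (3.40 ± 0.30), and a membrane-bound cue by Sema6c (3.13 ± 0.39).

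Several classes that all cells share had medians above the input. Nuclear-encoded genes of the respiratory chain and ATP synthase had a median of 1.29 ± 0.06. Of 88 genes 80 lay above the input in all 3 libraries, 5 were called higher (5.68%) and 1 lower (1.14%). Mitochondrial ribosomal proteins had a median of 1.02 ± 0.08 (71 of 76 above), cytosolic ribosomal proteins 1.14 ± 0.31 (70 of 81), proteasome subunits 0.83 ± 0.11 (34 of 37), and genes of autophagy and lysosomes 0.82 ± 0.10 (29 of 38). These shares compare with 35.8% over all genes. The lowest library median among these 5 classes was 0.68. For the cytosolic ribosomal proteins the library medians were 1.20, 0.85 and 1.47. Saline library 2, the lowest, had the smallest share of reads aligned to more than 1 place of the 3, 36.4% against 46.5% and 50.9%. Yoked library 2 had a share of 36.3%. The class medians of the 6 other immunopurified libraries ran from 1.12 to 1.49. Reads of ribosomal protein genes may be shared with pseudogenes, and the part of this in the values was not tested. Rpl10a, whose coding sequence is in the tag, measured 4.11 CPM in the input and 6.25, 2.23 and 9.43 CPM after purification, and its library values fell on both sides of the input.

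Glycolysis and the tricarboxylic acid cycle (0.49 ± 0.13), cholesterol synthesis (0.54 ± 0.28) and folding and secretion in the endoplasmic reticulum (0.55 ± 0.26) had medians above the input too, with no gene of the 3 classes called in either direction. In the glycolysis class, among genes with at least 100 counts on either side, Aldoc, an aldolase typical of astrocytes, and Pfkp, a phosphofructokinase, were the lowest (−1.69 ± 0.40 and −1.41 ± 0.07). The highest gene of cholesterol synthesis was Insig1, which holds the pathway's regulators in the endoplasmic reticulum, at 1.85 ± 0.42.

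Single members stood out in these classes. Ctsd, the lysosomal protease cathepsin D, measured 63.5 CPM in the input and 354, 720.2 and 579 CPM after purification (3.06 ± 0.53), and Map1lc3a, which coats autophagosomes, was called higher (2.49 ± 0.21). Psmb10, a catalytic subunit of the immunoproteasome, was the 1 proteasome gene called higher, from 6.97 CPM to 47.6, 42.2 and 53.5 CPM (2.77 ± 0.17). The small heat shock protein gene Hspb8 measured 7.70 CPM and then 232, 196 and 205 CPM (4.77 ± 0.13), while Cryab, a small heat shock gene of glia, was called lower (−3.48 ± 0.40). Chromatin and DNA methylation enzymes, also common to all cells, had a median below the input (−0.61 ± 0.09), with 11 of 43 above it in all 3 libraries and 27 below. The histone deacetylases Hdac9 and Hdac5 were the 2 of them called higher (2.55 ± 0.04 and 2.32 ± 0.12).

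**Figure D4:**
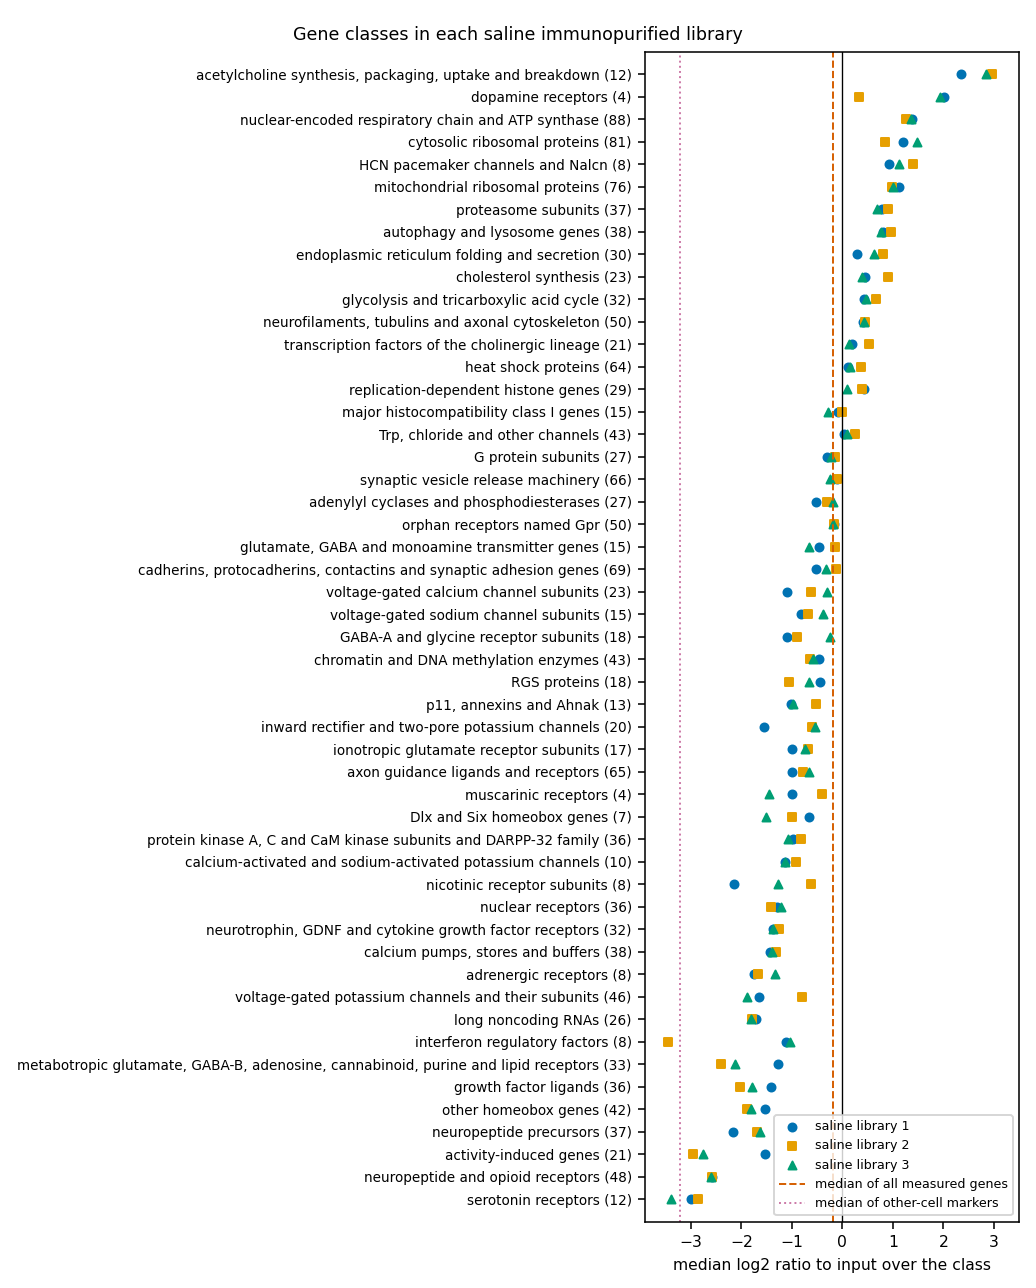
Median log2 ratio to the input over each gene class in the 3 saline immunopurified libraries, with the number of measured genes in brackets. The dashed line is the median of all measured genes (−0.20) and the dotted line that of the markers of other cell types (−3.20). Classes of energy metabolism, translation and protein turnover lie to the right of the dashed line in all 3 libraries, and serotonin and neuropeptide receptors to its far left.

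Activity-induced genes were low, with a median of −2.56 ± 0.77. Of 21 genes 8 were called lower (38.1%, against 12.9% over all genes) and 0 higher (against 3.56%). Egr3 measured 420.5 CPM in the input and 53.1, 36.7 and 18.5 CPM after purification, and Homer1 514 CPM and then 109, 81.6 and 47.6 CPM. The class median was −1.54 in saline library 1 and −2.96 and −2.75 in libraries 2 and 3, the same order as for the markers of other cells, and the part of those cells in it was not tested. Long noncoding RNAs, most of which are not translated, had a median of −1.70 ± 0.05 with 12 of 26 called lower (46.2%, against 12.9% over all genes). Malat1, a nuclear RNA, measured 21553 CPM in the input and 521, 503 and 352 CPM after purification (−5.58 ± 0.31). Among all 644 genes that RefSeq classes as long noncoding RNA, 27.2% were called lower, against 9.62% of 13180 protein-coding genes. Of 1313 rows named by a sequence accession in place of a symbol 40.4% were called lower.

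The ratio also followed the genomic span of protein-coding genes. In 5 groups of 2636 genes, from short to long, with median spans of 4.86, 13.4, 26.0, 51.9 and 147 kb, the median log2 ratio was 0.44, 0.15, −0.03, −0.32 and −0.65. The order held in each of the 3 saline libraries. The part of genomic span in the class medians above was not tested.

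**Figure D5:**
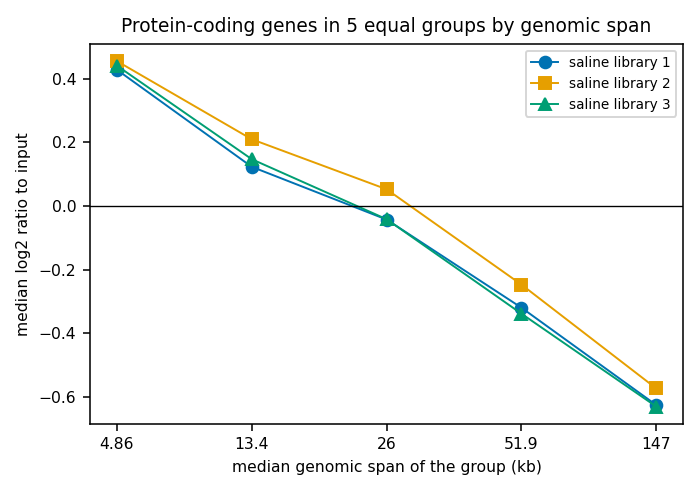
Median log2 ratio to the input in each of the 3 saline immunopurified libraries for 13180 protein-coding genes in 5 equal groups by genomic span, with the median span of each group on the x axis. The median goes from 0.44 in the group of shortest genes to −0.65 in that of the longest, and the 3 libraries lie close together.

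Of the 25 protein-coding genes with the highest ratios among those with at least 100 input counts, several belong to none of the gene classes. Slc10a4 and Slc25a1, described above, are among these. Ecel1, a neuronal endopeptidase-like gene that like Slc10a4 is on the cholinergic marker list, measured 9.02 CPM in the input and 458, 614 and 637 CPM after purification (5.97 ± 0.26). Pcbd1, an enzyme that recycles tetrahydrobiopterin, measured 4.38 CPM and then 163, 144 and 177 CPM (5.20 ± 0.15). Elfn1, a postsynaptic adhesion protein of interneurons, was at 4.73 ± 0.20. Secreted proteins of the group were Serpinf1, the pigment epithelium-derived factor (4.55 ± 0.21), and Ndnf, a neuron-derived neurotrophic factor (4.53 ± 0.38). Pkib, an inhibitor of protein kinase A, measured 14.6 CPM and then 358, 267 and 315 CPM (4.42 ± 0.21). Tnfaip8l3 (4.64 ± 0.17) and Mdga1 (4.45 ± 0.45), a cell adhesion gene that binds neuroligins, were also in the group.

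Values of the 6 cocaine and yoked libraries against the same input are set here beside the saline means as ranges, with no test, because all share that input. The log2 ratio was 5.74 to 6.11 for Chat (saline 5.76 ± 0.18), 4.95 to 5.35 for Lhx8 (saline 5.23 ± 0.13) and 5.65 to 7.24 for Slc18a3 (saline 6.70 ± 0.35). For Tacr1 it was 4.86 to 5.46 (saline 5.24 ± 0.23) and for Pde3a 4.36 to 4.90 (saline 4.63 ± 0.21). Ngfr, with few input counts, ran from 2.16 to 6.51 (saline 4.16 ± 1.42). The ratio was 2.30 to 3.66 for Drd2 (saline 2.40 ± 0.15), 4.34 to 5.82 for Tnfaip8l3 (saline 4.64 ± 0.17) and 4.65 to 5.90 for Elfn1 (saline 4.73 ± 0.20). For Chat, Slc18a3, Pde3a, Ngfr, Drd2, Tnfaip8l3 and Elfn1 the upper end lay above all 3 saline libraries, and for Lhx8 and Tacr1 it did not. The lower end lay below all 3 saline libraries for Lhx8, Slc18a3, Tacr1, Pde3a, Ngfr and Tnfaip8l3, and for Chat, Drd2 and Elfn1 it did not. By their labels the 6 libraries were run on lane 4 and the saline ones on lane 3. Condition and lane therefore cannot be told apart in these ranges. Among genes below the input the range was −5.72 to −4.71 for Malat1 and −2.95 to −2.53 for Gria2.

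The 15 lowest protein-coding genes include genes of vessels, immune cells and other tissues. The chemokine gene Cxcl12 measured 9.53 CPM in the input and 0.117, 0.0318 and 0.119 CPM after purification, Cav1 of endothelial caveolae 3.23 CPM and then 0.0781, 0.0318 and 0 CPM, and Cd53 of leukocytes 3.45 CPM and then 0, 0.0955 and 0.0238 CPM. Gh, the growth hormone gene, had 247 counts in the input and 0 in each of the 3 saline libraries, at least 65.1-fold lower when 0 is read as 3 counts per library. All 4 lay below the 10th percentile of the other-cell markers.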

How the data were processed

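RNA of 10 libraries was counted per gene. Reads were aligned with STAR 2.0.0e to mm10 and counted with HTSeq, per the submitters' processing notes. The deposited tables hold whole-number counts per gene symbol, with no normalization. The annotation, the strand setting and any trimming are not given in the sources used here. Overlapping and antisense genes, such as Slc18a3 inside Chat, may therefore share or lose reads. Rows for unassigned reads and the row "unknown" were left out. Reads marked ambiguous between genes made up 1.27% to 1.84% of the saline immunopurified libraries and 4.49% of the input.

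From the counts, CPM and the log2 ratio of each saline library to the input were computed in Python 3.11.15 with pandas 2.3.3, reading a count of 0 as 3 counts. Of the genes called higher, 24 had 0 and 59 had 1 to 3 input counts. Of those called lower, 218 had 0 counts in all 3 saline libraries. H2-Aa was called higher with 0 counts in 1 saline library. Exact 95% intervals cover counting error only, since reads carry no molecular identifiers. With 3 libraries against 1, a two-sided exact permutation test cannot go below p = 0.5, so none was run. As an alternative, edgeR 4.0.16 (R 4.3.3, quasi-likelihood test, 6 residual degrees of freedom) was fitted to all 10 libraries, with the lone input assumed to vary like the other groups, and DESeq2 1.42.0 gave size factors. The fold rule and the edgeR step were tested on simulated data. Transcript lengths were not used, so levels are not compared between genes.

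The libraries, the 13 marker lists, the 51 gene classes and the rules were chosen with earlier results of these data known. The text names the defining genes and Rpl10a. In each class it draws on up to 4 members at either end among those with a mean of at least 100 counts on either side, and on the member highest after purification. Over all protein-coding genes with at least 100 input counts it draws on the 25 highest and 15 lowest. Markers of other cells above the input are named too. Acly, Cs, Doc2g, Etv1, Gad1, Gal, Gfra1, Gfra2, Gfra3, Gria1, Gria4, Grin1, Grin2b, H2-Aa, Hcrtr2, Ina, Ntrk2, Ntrk3, Oprk1, Oprm1, Pdha1, Rab3a, Rab3c, Rln1, Sst, Trpc5 and Zic2 fall outside this rule and were named after their values were seen. RefSeq gave a symbol for 13937 of the measured genes, 13180 of them protein-coding, with their genomic spans. Alternatives covered scaling, the count minimum, the reading of 0, each saline library left out, the 6 other immunopurified libraries and the edgeR fit. Some genes that the rule names are not reported here.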

Additional observations from a re-analysis of the deposited data

How the results depend on the processing

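The 566 genes called higher stayed between 445 and 755 over all alternatives. The 2045 called lower became 1095 with at least 100 counts, 1259 with the 6 cocaine and yoked libraries and 1065 in the edgeR fit (adjusted p under 0.05 and at least 4-fold). The last set shared 918 genes with the 2045 and, of 755 called higher, 484 with the 566. With 1 saline library left out, the counts were 606 to 694 higher and 2282 to 2630 lower, since fewer libraries had to pass. The cholinergic marker median was then 5.23 to 5.40 and that of other cells −3.53 to −2.91. The edgeR fit gave a cholinergic median of 5.43. TMM scaling moved the median of all genes by 0.11. It turned the medians of Trp and chloride channels and of histocompatibility genes. The cholinergic-lineage transcription factors turned under 4 settings. No called gene named in the text changed direction under these alternatives. No paired analysis was possible because the input library carries no replicate number of its own.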
